A study of Mus musculus with 8 samples.

Results

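The D-type cyclins, the 2 kinases they activate and the retinoblastoma family of pocket proteins were followed through freshly sorted and culture-expanded muscle progenitors of mouse. The 8 genes were taken by symbol: Ccnd1, Ccnd2 and Ccnd3 encode cyclins D1, D2 and D3, Cdk4 and Cdk6 encode their catalytic partners, and Rb1, Rbl1 and Rbl2 encode pRb, p107 and p130. All 8 were among the 24980 genes of the count table, and all 8 were among the 17582 that passed edgeR's filter on low counts, with reads in every library.

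A cell enters the cycle from G1 when D cyclins bind CDK4 or CDK6 and the complexes phosphorylate the pocket proteins. Unphosphorylated pocket proteins hold E2F transcription factors, and their release lets genes for S phase be transcribed. p130 is known as the pocket protein of resting cells, where it sits with E2F4 in the DREAM complex, p107 as that of cycling cells, and pRb as the one needed for myoblasts to leave the cycle for good when they fuse. In muscle, satellite cells rest until injury, and cyclin D3 is the D cyclin associated with differentiating myotubes.

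The study compared 4 groups of 2 libraries. TF cells were progenitors sorted straight from teratomas that EGFP-labelled mouse embryonic stem cells formed in the tibialis anterior of NSG-mdx4Cv mice, an immunodeficient dystrophin-mutant host whose muscle had been irradiated and injured with cardiotoxin. TE cells were such progenitors grown in vitro to passage 8. SF cells were satellite cells sorted from adult mouse muscle, and SE cells were satellite cells at passage 8. The teratoma sort took cells positive for EGFP, alpha7-integrin and VCAM-1 and negative for CD31 and CD45; the gate used on adult muscle is not given in the sources used here. Both expanded groups grew on gelatin in one medium. Origin and the tissue of sampling, a tumour in an injured host or adult muscle, cannot be told apart, and the sources used here give no age, sex or strain for the satellite cell donors. In each comparison below the group named first is set against the second.

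Libraries held 11930961 to 21146632 estimated counts, of which the ribosomal precursor Rn45s took 7.99% to 21.3%. Pax7, the transcription factor that defines satellite cells, stood at 3066 to 4913 normalised counts (estimated counts divided by DESeq2's size factor) in the 4 fresh libraries. In the 4 expanded ones it stood at 1174 to 1743. The 8 myogenic progenitor genes did not share 1 direction. Vcam1 was also lower after expansion, at 3856 to 6581 in the fresh and 580 to 1785 in the expanded libraries. Myod1 was lowest in TF, at 637 to 930, against 4818 to 10701 in the other groups. The fresh groups also held markers of other cells: 6 fibro-adipogenic genes summed to 17974 to 28386 normalised counts in the 4 fresh libraries and to 35.5 to 117 in the 4 expanded ones. The 6 endothelial genes summed to 1113 to 6080 in the fresh and 13.1 to 36.9 in the expanded libraries, with Emcn and Kdr at 0 in all 4 of the latter. The 10 genes of differentiated muscle summed to 1613 to 20666 in the fresh and 116181 to 256417 in the expanded libraries. In bulk RNA, fewer cells of a type and less RNA per cell cannot be told apart. The replicates of SE differed most: replicate 1 held 10502 normalised counts of the proliferation marker Mki67 and replicate 2 held 4177, while the differentiated muscle genes summed to 116181 and 256417. The TF replicates differed in markers of other cells. In them 6 haematopoietic genes summed to 6792 in replicate 1 and 595 in replicate 2, and the endothelial genes to 3765 and 1113. The haematopoietic sum was 718 to 957 in SF and 47.2 to 168 in the expanded libraries.

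Expansion moved the whole axis in satellite cells and part of it in teratoma-derived cells. In SE against SF, 7 of the 8 genes rose and Rbl2 fell; of all genes tested, 40.7% were called, 20.9% higher and 19.8% lower. In TE against TF, Ccnd1, Ccnd3, Cdk6 and Rb1 rose, Rbl2 fell, and Ccnd2, Cdk4 and Rbl1 were not called, where 26.1% of all genes were (9.86% higher, 16.2% lower). Between the fresh groups, Ccnd2, Ccnd3, Cdk4 and Rbl1 were higher in TF than in SF and the other 4 were not called (background 24.2%, with 15.1% higher and 9.13% lower). Between the expanded groups 1 of 8 genes was called, Ccnd1, lower in TE than in SE (background 7.21%, with 3.15% higher and 4.07% lower). A call here is a Benjamini-Hochberg adjusted p below 0.05 over all genes in edgeR's quasi-likelihood test together with a rise of more than 25% or the same fold downwards. The median log2 fold change of the 8 genes was 2.57 in SE against SF and 0.98 in TE against TF, where the medians of all genes tested were -0.23 and -0.18. With median-ratio size factors in place of TMM, the all-gene median shifted by -0.19 in SE against SF, by -0.16 in TF against SF and by 0.14 in the difference between the effects of expansion described further on, and no member changed direction. Calls over all genes then split differently: 2655 higher and 1606 lower in TF against SF became 2110 and 1943, and with DESeq2 2510 and 2643. TE was also set against SF, a comparison added after the data were seen; 7 members were higher in TE and Rbl2 lower, where 46.6% of all genes were called (23% higher, 23.6% lower). These comparisons share libraries and are not independent of one another.

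**Figure D1:**
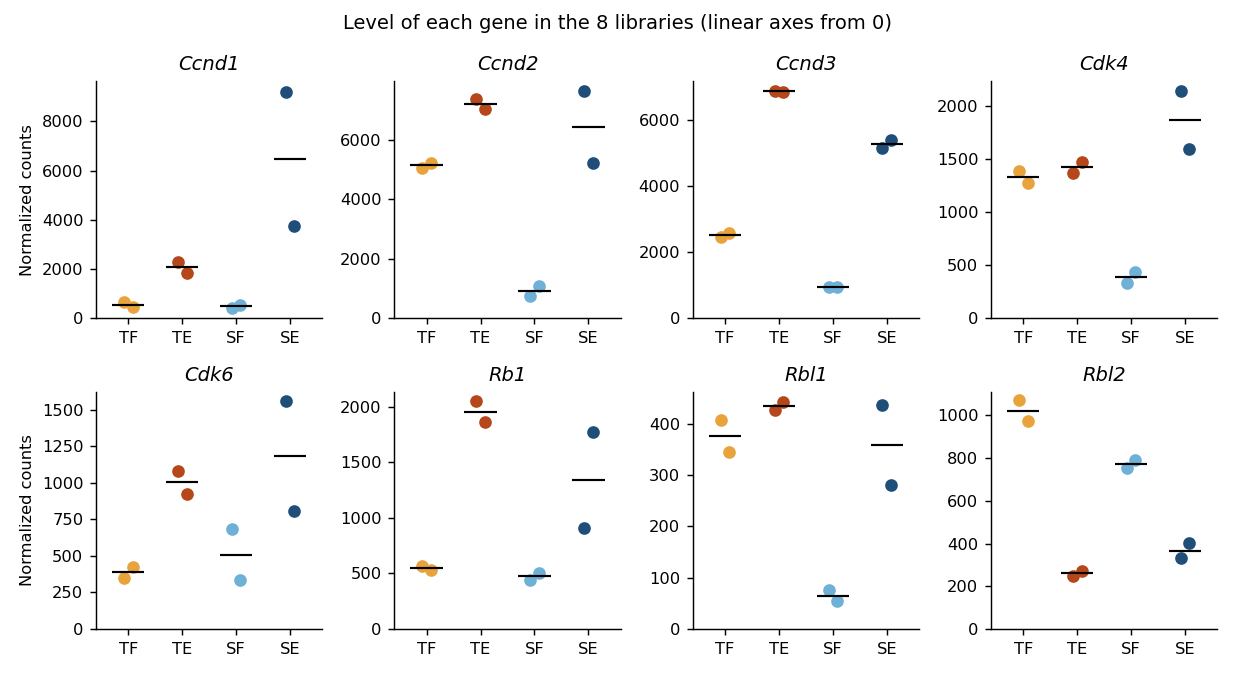
Normalised counts (vertical axis) of the 8 genes in each of the 8 libraries, with 1 panel per gene. The group is on the horizontal axis, with 1 point per library. Ccnd2, Cdk4 and Rbl1 are lowest in the 2 SF libraries, Ccnd1 and Rb1 are lower in the fresh than in the expanded libraries, and Rbl2 is higher in all 4 fresh libraries than in any expanded one.

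The D cyclins differed among themselves. Ccnd1 (chr7:144929931-144939925, minus strand, GRCm38), the cyclin most directly induced by mitogens, stood at 674 and 438 normalised counts in TF, 423 and 541 in SF, 2277 and 1854 in TE, and 9204 and 3737 in SE. The fresh groups overlapped, all expanded libraries lay above them, and both SE libraries lay above both TE libraries. In SE against SF Ccnd1 rose 15.3-fold (log2 3.93 ± 0.42 standard error, adjusted p = 9.45e-05), the largest log2 change of the 8 genes in this fit. TE against TF showed a 3.86-fold rise (log2 1.95 ± 0.39, adjusted p = 0.00567). The expanded groups differed by -1.62 ± 0.38 on the log2 scale (adjusted p = 0.0342), the one member call between them. That call was lost in a fit of TE and SE alone (adjusted p = 0.0705), and without TE replicate 1 (0.0745), TE replicate 2 (0.149) or SE replicate 1 (log2 -0.83, adjusted p = 0.0973). Without SE replicate 1, the library with more Mki67, the rise in SE against SF was 3.17 on the log2 scale and still called; the part of proliferation in the gap between the SE libraries was not tested.

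Ccnd2 (chr6:127125162-127152193, minus strand) was low in 1 group. Its normalised counts were 743 and 1096 in SF, against 5064 and 5238 in TF, 7393 and 7061 in TE, and 7642 and 5229 in SE. No library outside SF came near the SF values, and TF and SE overlapped. TF exceeded SF 6.24-fold (log2 2.64 ± 0.26, adjusted p = 2.5e-04) and SE exceeded SF 7.96-fold (log2 2.99 ± 0.27, adjusted p = 3.23e-05). TE and TF did not overlap, but the difference of 0.54 ± 0.25 (95% interval -0.01 to 1.10) was not called (adjusted p = 0.134). It was called in a fit of those groups alone (log2 0.52, adjusted p = 0.00425). Ccnd2 lies on chromosome 6, whose 911 tested genes had a median log2 difference of 0.51 in TF against SF and 0.40 in TE against SE, where all genes tested had 0.08 and 0.00. Among genes with a mean of at least 50 normalised counts, chromosome 6 ranked 1 of 19 autosomes in both comparisons. The part of that chromosome-wide offset in the Ccnd2 values was not tested.

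Ccnd3 (chr17:47505051-47599691, plus strand) rose in steps. It stood at 944 and 943 normalised counts in SF, 2439 and 2575 in TF, 5143 and 5387 in SE, and 6871 and 6835 in TE. No groups overlapped, and the gaps between groups were wider than those between replicates. TF exceeded SF 2.97-fold (log2 1.57 ± 0.17, adjusted p = 3.55e-04), and expansion raised Ccnd3 2.84-fold in teratoma-derived cells (log2 1.51 ± 0.17, adjusted p = 1.94e-04) and 6.37-fold in satellite cells (log2 2.67 ± 0.18, adjusted p = 6.35e-06). TE against SE was 0.40 ± 0.16 and not called by edgeR (adjusted p = 0.204), while DESeq2 called it (log2 0.38, adjusted p = 0.0373).

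Cdk4 (chr10:127063534-127067920, plus strand), the main partner of D cyclins in most cells, followed Ccnd2 rather than Ccnd1 in where it was low. Its normalised counts were 336 and 437 in SF, 1388 and 1276 in TF, 1374 and 1475 in TE, and 2147 and 1598 in SE. The SF libraries lay below all others, and TF and TE overlapped. TF exceeded SF 3.84-fold (log2 1.94 ± 0.23, adjusted p = 4.95e-04), and SE exceeded SF 5.51-fold (log2 2.46 ± 0.23, adjusted p = 4.07e-05). For TE against TF the difference was 0.15 ± 0.22 (95% interval -0.33 to 0.64, adjusted p = 0.635).

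Cdk6 (chr5:3341485-3531008, plus strand), the second D cyclin kinase, was lower in both fresh groups. It stood at 352 and 426 normalised counts in TF, 680 and 335 in SF, 1083 and 923 in TE, and 1562 and 806 in SE. The fresh groups overlapped, as did the expanded groups, and every expanded library lay above every fresh one. The rises had nearly one size, 2.68-fold in each origin (log2 1.42 ± 0.37, adjusted p = 0.0200 for TE against TF and 0.0132 for SE against SF). Both were fragile: the first was lost without TF replicate 1 (adjusted p = 0.0738) or TE replicate 1 (0.0587), and the second without SF replicate 2 (log2 1.03, adjusted p = 0.0541) or SE replicate 1 (log2 0.90, adjusted p = 0.0537).

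The upstream sequences of Cdk4 and Rbl1 are shown because these members were low in SF, and that of Rbl2 because it moved against the rest. RefSeq (GRCm38.p6) gave windows for 5 of the 8 genes, Ccnd3, Cdk4, Cdk6, Rbl1 and Rbl2. Each run below holds the 250 bases before the start site, 5′ to 3′ on the gene's strand, with capitals on matches to the motifs searched on both strands.
Cdk4 (chr10:127063285-127063534, plus strand): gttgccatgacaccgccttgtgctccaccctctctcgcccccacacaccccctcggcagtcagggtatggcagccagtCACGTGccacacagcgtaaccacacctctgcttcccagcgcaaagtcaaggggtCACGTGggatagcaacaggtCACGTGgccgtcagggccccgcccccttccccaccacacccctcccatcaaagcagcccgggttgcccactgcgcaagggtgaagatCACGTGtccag
Rbl1 (chr2:157204535-157204784, minus strand): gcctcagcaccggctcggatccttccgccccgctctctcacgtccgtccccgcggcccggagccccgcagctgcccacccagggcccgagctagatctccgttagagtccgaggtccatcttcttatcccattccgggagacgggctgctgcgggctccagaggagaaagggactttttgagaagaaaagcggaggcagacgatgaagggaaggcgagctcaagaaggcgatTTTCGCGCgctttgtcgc
Rbl2 (chr8:91069807-91070056, plus strand): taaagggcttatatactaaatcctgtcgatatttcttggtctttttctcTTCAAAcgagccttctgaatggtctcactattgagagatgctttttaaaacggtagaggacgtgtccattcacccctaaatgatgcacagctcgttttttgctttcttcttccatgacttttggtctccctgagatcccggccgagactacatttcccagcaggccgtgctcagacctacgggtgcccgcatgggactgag
The capitals in Cdk4 mark 4 copies of the E-box CACGTG, the letters bound by MYC and related factors, beginning 172, 118, 98 and 11 bases before the start. At least 1 copy occurred in 6.02% of the 32851 RefSeq windows of this length, and 4 or more in 7 windows (0.0213%). In Rbl1 they mark TTTCGCGC, one of the E2F forms searched (TTTCCCGC, TTTCGCGC, TTTGCCGC and TTTGGCGC), 18 bases before the start; 1.86% of windows held one of these. Rbl2 held TTCAAA, the reverse complement of the CHR element TTTGAA, 201 bases before the start, and 17.1% of windows held TTTGAA or TTCGAA on a strand. TGACGTCA, the cyclic AMP response element, was in none of the members' windows and in 1.55% of all. Cdk6 held 1 CACGTG and the 2 Ccnd3 windows held none of these letters. A match describes the letters and shows no binding.

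The pocket proteins moved apart. Rbl2 (chr8:91070057-91123844, plus strand), for p130, stood at 1070 and 974 normalised counts in TF, 752 and 789 in SF, 249 and 271 in TE, and 331 and 402 in SE. All fresh libraries lay above all expanded ones. With expansion Rbl2 fell by 1.92 ± 0.22 on the log2 scale in teratoma-derived cells (adjusted p = 2.5e-04) and fell by 0.88 ± 0.22 in satellite cells (adjusted p = 0.00997). The latter call was lost without SE replicate 1 (log2 -0.72, adjusted p = 0.0726). The summed fibro-adipogenic markers fell with Rbl2, with Dpt at 0 in both TE libraries and Lum at 0 in both SE libraries, and the part of such cells in the Rbl2 level was not tested.

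Rb1 (chr14:73183673-73325822, minus strand) went the other way. Its normalised counts were 566 and 527 in TF, 443 and 501 in SF, 2053 and 1858 in TE, and 905 and 1775 in SE. The fresh libraries lay below all expanded ones, and SE replicate 1, the library with more Mki67 and less differentiated muscle RNA, was the lowest of the expanded. Rb1 rose 3.72-fold in TE against TF (log2 1.89 ± 0.30, adjusted p = 0.00146) and 3.24-fold in SE against SF (log2 1.70 ± 0.30, adjusted p = 0.00163). TE and SE differed by 0.57 ± 0.29, which was not called (adjusted p = 0.323), although it was without SE replicate 2 (log2 1.14, adjusted p = 0.00892).

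Rbl1 (chr2:157145893-157204534, minus strand), for p107, was low in SF alone. It stood at 75.2 and 53.6 normalised counts in SF, 408 and 344 in TF, 426 and 443 in TE, and 436 and 281 in SE. The SF libraries stood apart, and the other 6 lay between 281 and 443. TF exceeded SF 6.54-fold (log2 2.71 ± 0.35, adjusted p = 7.8e-04), and SE exceeded SF 6.37-fold (log2 2.67 ± 0.35, adjusted p = 2.73e-04). For TE against TF the difference was 0.26 ± 0.32 (95% interval -0.45 to 0.98, adjusted p = 0.572).

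**Figure D2:**
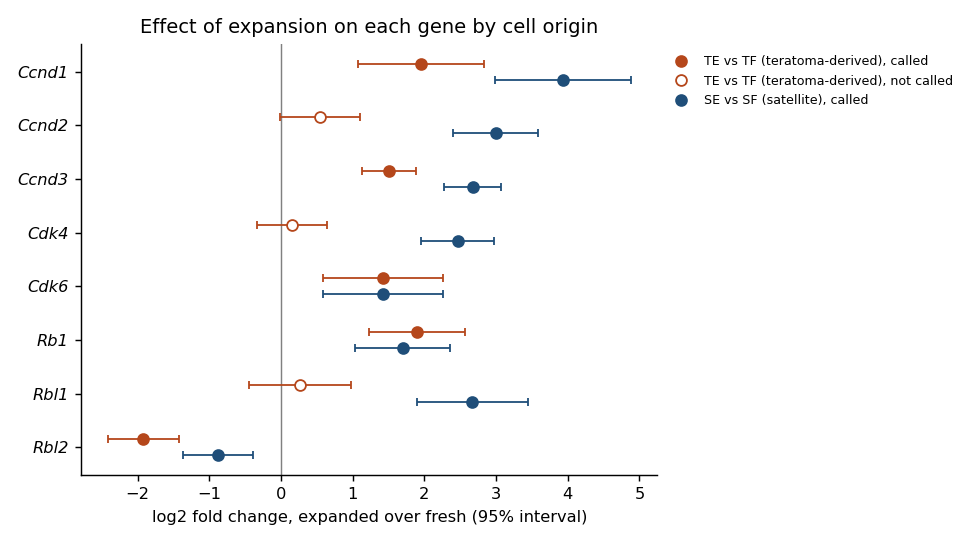
Log2 fold change of each gene with expansion (horizontal axis), TE against TF and SE against SF, with points at the fitted value and bars for the 95% interval. The intervals for Ccnd2, Cdk4 and Rbl1 include 0 in teratoma-derived cells, and Rbl2 is below 0 in both origins.

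Whether expansion acted alike in both origins was tested as the difference between the effects, teratoma-derived minus satellite. It was called for 5 of the 8 genes, each with the smaller effect in teratoma-derived cells, where 14.3% of all genes were called (4.7% higher, 9.62% lower). The difference was -2.45 ± 0.35 on the log2 scale for Ccnd2 (adjusted p = 0.00229), -2.41 ± 0.46 for Rbl1 (0.00831) and -2.31 ± 0.31 for Cdk4 (0.00160), the 3 genes that were low in SF alone. For Ccnd1 it was -1.98 ± 0.54 (adjusted p = 0.0385) and for Ccnd3 -1.17 ± 0.23 (adjusted p = 0.0102). The Ccnd1 call was lost with median-ratio size factors (log2 -1.85, adjusted p = 0.0522) and without TF replicate 1 (0.0885), TE replicate 1 (0.0512), TE replicate 2 (0.0880) or SF replicate 1 (0.108). Without SE replicate 1 its value was -1.19, still called (adjusted p = 0.0411). The Ccnd3 call was lost without TF replicate 2 (adjusted p = 0.0665), TE replicate 1 (0.0932) or TE replicate 2 (0.0909). Rbl2 gave -1.04 ± 0.31 (adjusted p = 0.0507), and it was called without SE replicate 1 (log2 -1.17, adjusted p = 0.0420). Cdk6 gave 0.00 ± 0.52 (95% interval -1.16 to 1.16) and Rb1 0.20 ± 0.41 (95% interval -0.72 to 1.12), intervals that leave room for differences above 2-fold.

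Fresh teratoma-derived cells were also set against expanded satellite cells, to ask how near TF stood to the cultured state. Rbl2 was higher in TF by 1.45 ± 0.22 on the log2 scale (adjusted p = 0.00129), and Ccnd1, Ccnd3, Cdk6 and Rb1 were lower, so that 5 of 8 were called (background 23.6%, with 14.5% higher and 9.16% lower). The Ccnd1 difference was the largest, -3.57 ± 0.42 (adjusted p = 2.56e-04), and was -2.81 without SE replicate 1. Rbl1 differed by 0.04 ± 0.32 (95% interval -0.67 to 0.75), which was not called. Ccnd2 differed by -0.35 ± 0.25 (adjusted p = 0.327) and Cdk4 by -0.52 ± 0.22 (adjusted p = 0.110), also not called. Chromosome 6, which holds Ccnd2, had a median log2 difference of 0.80 in this comparison, where all genes tested had 0.10. The part of that offset in the Ccnd2 value was not tested. Cdk4 was called without SE replicate 2 (log2 -0.72, adjusted p = 0.0461).

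Levels can be compared between genes only per kilobase of transcript, here the longest protein-coding model of the gene. On that scale the pocket proteins, whose longest transcripts run from 4656 to 4925 bases, changed places. Rbl2 made up 51.6% ± 0.3 (SD, n = 2) of the summed level of the family in TF and 57.7% ± 0.34 in SF, but 9.41% ± 0.98 in TE and 17.4% ± 2.5 in SE. Rb1 took 29.2% ± 0.61 in TF and 37.4% ± 1.7 in SF, against 74.7% ± 2.1 in TE and 64.3% ± 12.7 in SE. Rbl1 made up 4.91% ± 1.4 in SF and 15.9% to 19.2% in the means of the other groups. The summed level of the family stood at 382 to 423 normalised counts per kilobase in TF, 263 to 279 in SF, 545 to 579 in TE, and 351 and 520 in SE. Rbl2 led in every fresh library and Rb1 in every expanded one.

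**Figure D3:**
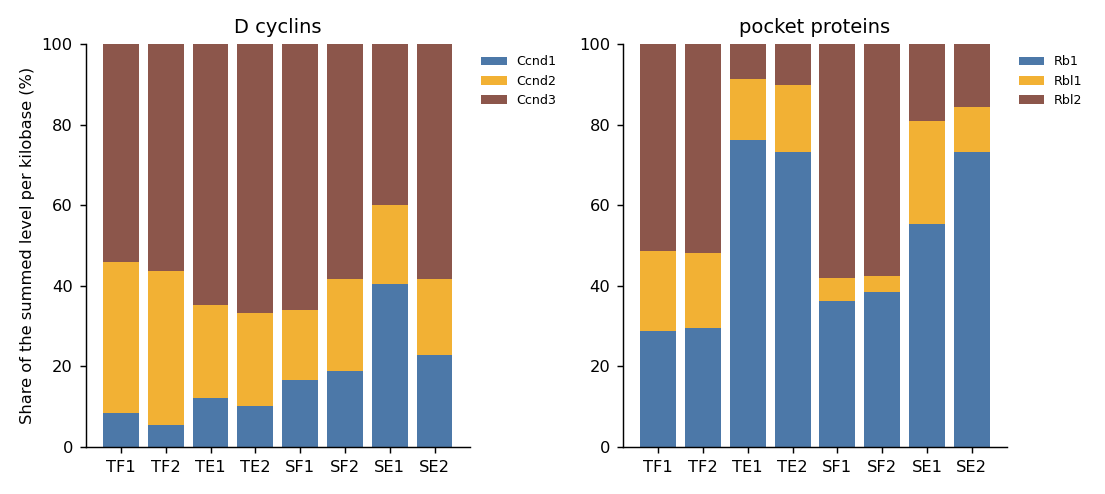
Share of each member in the summed level per kilobase of its family (percent), for D cyclins and pocket proteins, as 1 stacked bar per library. Rbl2 leads the pocket proteins in TF and SF and Rb1 leads them in TE and SE. Shares of D cyclins depend on which transcript length is used.

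D cyclin shares depended on the length used, since Ccnd2 transcripts run from 983 to 6330 bases. With the longest models Ccnd3 led in the mean of every group, at 55.2% ± 1.6 in TF, 62.2% ± 5.3 in SF, 65.7% ± 1.5 in TE and 49.1% ± 13.0 in SE. In SE replicate 1 Ccnd1 stood slightly above Ccnd3, at 40.3% against 39.9%, while in SE replicate 2 they took 22.8% and 58.3%. With median lengths Ccnd2 led instead. Ccnd1 took its largest share in SE under both lengths, 31.6% ± 12.4 with the longest models and 15.4% with median lengths. The summed D cyclin level, in normalised counts per kilobase of the longest models, was 677 and 764 in SF, 2135 and 2163 in TF, 5029 and 4846 in TE, and 6102 and 4375 in SE. Cdk4 made up 95.03% ± 0.91 of the kinase sum in TF and 88.8% ± 1.6 in TE. In SF it took 80.7% ± 10.2 and in SE 90.1% ± 2.3. With median lengths the Cdk4 shares were 94.5% in TF, 87.8% in TE, 79.1% in SF and 89.2% in SE. Cdk6 models of 2470 and 11525 bases still leave that share uncertain.

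The rest of the pathway was read from lists chosen for their role, whose counts stand beside the shares of all genes tested: 20.9% called higher and 19.8% lower in SE against SF, 9.86% and 16.2% in TE against TF, 15.1% and 9.13% in TF against SF, and 3.15% and 4.07% in TE against SE. Of 14 G2/M genes, 13 rose in SE against SF (median log2 4.37) and 12 were higher in TF than in SF, but 1 rose in TE against TF and 0 were called between TE and SE by edgeR or DESeq2 (1 at an unadjusted p below 0.05). Mki67 stood at 229 and 236 normalised counts in SF, 5788 and 6326 in TF, 6929 and 5726 in TE, and 10502 and 4177 in SE. Top2a, the topoisomerase that untangles chromosomes, stood at 200 and 133 in SF and at 2534 to 6890 in the other 6 libraries. Of 22 G1/S targets of E2F, 15 rose and 1 fell in SE against SF, 12 of 22 were higher in TF than in SF, 1 rose in TE against TF (Rrm1, a ribonucleotide reductase subunit, log2 1.30 ± 0.22, adjusted p = 0.00231), and 0 were called between TE and SE by edgeR (2 by DESeq2, 3 at an unadjusted p below 0.05). The 1 that fell was Tyms, thymidylate synthase, named after its values were seen, at 4080 and 696 normalised counts in SF and 601 and 375 in SE, a call lost without SF replicate 1 or SE replicate 2 and in a fit of those groups alone. Pcna, the sliding clamp of replication and also named after its values were seen, was not low in SF either, at 1395 and 1717 normalised counts there against 586 to 1274 in the other 6 libraries, and it was not called in SE against SF (log2 -0.66, adjusted p = 0.0898). Mcm2, of the replicative helicase, rose by 3.42 ± 0.43 in SE against SF (adjusted p = 2.28e-04). The count of G2/M genes called lower in the difference between the effects of expansion was 12 of 14, and that of G1/S targets 8 of 22. Of all genes tested, 9.62% were called lower in that difference and 4.7% higher. Leaving out single libraries and the other alternatives gave 0 to 3 G2/M calls and 0 to 4 G1/S calls in TE against SE, and 0 to 7 and 1 to 5 in TE against TF.

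**Figure D4:**
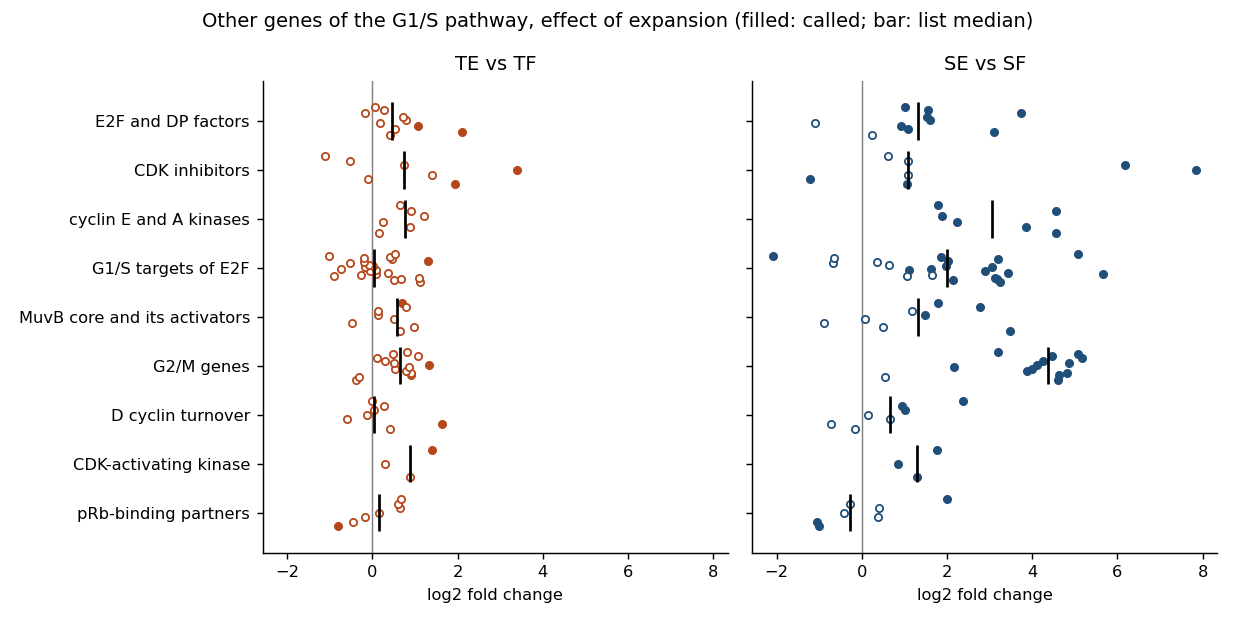
Log2 fold change (horizontal axis) of each tested gene in each pathway list, with 1 panel for TE against TF and 1 for SE against SF. Filled points are called genes, open points are not called, and a bar marks the list median. G2/M genes and G1/S targets of E2F are called in most cases in SE against SF and seldom in TE against TF.

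The cyclin and kinase pairs that act after the D cyclins had 6 of 6 tested genes higher in SE than in SF, 4 of 6 higher in TF than in SF, and 0 called in TE against TF by edgeR or DESeq2 (2 at an unadjusted p below 0.05, and 0 to 4 over the alternatives). Ccna2, cyclin A2, stood at 40.8 and 50.2 normalised counts in SF and at 624 to 1254 in the other 6 libraries.

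Among 10 E2F and DP factors, 8 rose in SE against SF and 2 in TE against TF. E2f2, an activator E2F, stood at 42.0 and 38.8 normalised counts in SF, 402 and 434 in TF, 235 and 376 in SE, and 1709 and 1759 in TE. It rose in both expansions (log2 3.11 ± 0.29 in satellite cells, adjusted p = 4.29e-05, and 2.11 ± 0.26 in teratoma-derived cells, adjusted p = 3.41e-04) and was higher in TE than in SE by 2.53 ± 0.26 (adjusted p = 6.65e-04). E2f8, a repressor E2F, went the opposite way between the expanded groups, with 169 and 248 in TE and 897 and 863 in SE (log2 -2.05 ± 0.37, adjusted p = 0.00963), a call lost without TE replicate 1 (adjusted p = 0.0696).

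Of 7 CDK inhibitors, 3 rose and 1 fell in SE against SF. In TE against TF 2 rose and 0 fell, where 26.1% of all genes tested were called (9.86% higher, 16.2% lower). Cdkn2a, which encodes the CDK4 and CDK6 inhibitor p16 and also p19Arf from another reading frame, stood at 10.2 and 1.14 normalised counts in SF, 106 and 46.7 in TF, 714 and 845 in TE, and 1186 and 1075 in SE. One SF library lay under the level of 3 counts (3.42 normalised counts there). Cdkn2a rose by 3.40 ± 0.47 in TE against TF (adjusted p = 7.19e-04) and by 7.85 ± 0.64 in SE against SF (adjusted p = 2e-05), the latter fitted against near-zero counts; a gene total cannot tell its products apart. Cdkn2b, for the related inhibitor p15, stood at 24.2 and 5.70 in SF, 203 and 153 in TF, 241 and 327 in TE, and 1191 and 696 in SE. Cdkn1a, for p21, the inhibitor linked to myoblast cycle exit, rose in TE against TF by 1.93 ± 0.31 (adjusted p = 0.00160) and in SE against SF by 1.06 ± 0.30 (adjusted p = 0.0192), the second lost without SF replicate 1 or SE replicate 2. The expanded groups differed in 2 inhibitors, Cdkn1c, for p57, at 15385 and 14317 in TE and 439 and 2223 in SE (log2 3.50 ± 0.61, adjusted p = 0.00844), and Cdkn1b, for p27, at 1313 and 1514 in TE and 249 and 469 in SE (log2 2.00 ± 0.31, adjusted p = 0.00471). Cdkn1b was the inhibitor that fell in SE against SF, from 828 and 1085 normalised counts to 249 and 469 (log2 -1.22 ± 0.30, adjusted p = 0.00999). Between TE and SE, edgeR called 2 of 7 inhibitors and DESeq2 3, where edgeR called 7.21% of all genes.

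The genes whose levels ran most like each member over the 8 libraries were named by Pearson's r on the log2 scale among 12672 genes, as a description, since libraries of a group are not independent conditions. Rbl1 ran with Tedc1 (r = 0.997), Stmn1 (0.995) and Hist2h2bb (0.992). Cdk4 ran with Kif22 (0.996), a kinesin of the mitotic spindle, the linker histone Hist1h1d (0.994) and Brcc3 (0.992). Cdk6 ran with Sass6 (0.982), a centriole gene, and with Coq6 (0.975) and Rbpms2 (0.967). Ccnd3 ran with Tsg101, Uqcrq and the troponin Tnnt2 (r = 0.996 to 0.997), and Tnnt2 stood at 11.5 to 669 normalised counts in the fresh and 6721 to 19607 in the expanded libraries. Rb1 ran with Cyc1 (0.992), Baiap2l1 (0.991) and Ube3b (0.990), and Ccnd1 with Lpgat1 (0.990), Hlx (0.986) and Sema3e (0.983). Ccnd2 ran with Mex3a and Zdhhc6 (both 0.996) and with Mbd3 (0.994). Rbl2 ran with Pdgfrl and Hic1 (both 0.995), which stood at 339 to 1262 in the fresh and 9.73 to 48.9 in the expanded libraries. Next for Rbl2 came Gm2a (0.994), at 482 to 846 in the fresh and 103 to 224 in the expanded libraries.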

How the data were processed

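Stranded total RNA libraries (SMARTer Pico) of 8 samples were sequenced paired-end. The authors deposited estimated counts per gene; kallisto 0.44.0, CASAVA and the build GRCm38 (mm10) are named in the submitters' processing notes. Samples were grouped by their labels, 2 per group. The study calls them biological replicates without saying whether animals or cultures differed, so p-values measure the spread between these libraries. That spread was estimated over the 4 groups together, although the SE replicates differed most and the TE replicates least. Estimated counts were rounded, filtered with filterByExpr (17582 of 24980 genes), scaled by TMM and fitted in 1 model over the 4 groups with edgeR 4.0.16 (quasi-likelihood, R 4.3.3), without a replicate block. Calls required an adjusted p below 0.05 and a rise over 25% or the same fold downwards. Printed levels were divided by DESeq2 1.42.0 size factors; 3 counts correspond to 2.15 to 3.89 of them. Because each group has 2 libraries, both values are given. Named genes were the 8 members and, per list and comparison, up to 4 called genes by size of change. The members and lists were chosen with earlier results of these data known. Scripts were tested on simulated data. Alternatives were other size factors, no filter, DESeq2, 2-group fits, a block, a test against the fold threshold, Rn45s left out, and each library left out.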

Additional observations from a re-analysis of the deposited data

Results flagged for a closer look

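The 5 results below were singled out because the effect of expansion differed between the origins by a test of the difference itself, teratoma-derived minus satellite, on the log2 scale. The value was -2.45 for Ccnd2, -2.41 for Rbl1, -2.31 for Cdk4, -1.98 for Ccnd1 and -1.17 for Ccnd3. For Ccnd2, Rbl1 and Cdk4 the call held under each of the alternatives run. With 2 libraries per group the libraries could not be tested for standing apart from its group.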

How the results depend on the processing

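Under 15 alternatives the number of members called stayed within 1.5 times the main count for TE against TF, SE against SF, TF against SF and TF against SE. In TE against SE it was 2 with DESeq2, 0 in the 2-group fit and 0 to 2 with single libraries left out. In the difference between the effects it was 3 to 6 with libraries left out. Genes called in TE against SE numbered 1268, against 2260 without the filter, 2163 with DESeq2 and 653 to 1698 with libraries left out. Those ranges were 2739 to 5439 for TE against TF, 2639 to 5072 for TF against SF and 1467 to 2996 for the difference between the effects. With DESeq2 the calls in SE against SF went from 3677 higher and 3475 lower to 3366 and 4870, and in the difference from 826 and 1691 to 1544 and 1975.

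Signs turned only for values that were not called. With single libraries left out, Cdk6 ranged from -0.61 to 0.33 in TF against SF (turned without SF replicate 1) and from -0.61 to 0.34 in TE against SE (turned without SE replicate 1), and Ccnd2 in TE against SE from -0.050 to 0.49 (turned without SE replicate 2). Rbl1 in TF against SE ranged from -0.24 to 0.36, with -0.10 without TF replicate 1 and -0.24 without SE replicate 2. In the difference, Rb1 ranged from -0.20 without SE replicate 1 to 0.77, and Cdk6, at 0.55 without SE replicate 1, gave -0.013 without the filter, -0.036 with the replicate block, and -0.13, -0.11, -0.54 and -0.40 without TF replicate 1, TE replicate 1, SF replicate 1 and SE replicate 2. The cause was not tested.

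The sources used here do not say whether same-numbered libraries share an animal or a culture. Their deviations correlated between groups at -0.026 to 0.075, and with 2 libraries per group such values cannot decide it. With the replicate block 4321 genes were called in TE against TF and 2327 in the difference, and no member's call changed.

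Shares without length correction, in the order TF, TE, SF and SE, were 62.7%, 44.8%, 38.8% and 35.6% for Ccnd2, 30.5%, 42.5%, 40.7% and 30.5% for Ccnd3, and 77.4%, 58.7%, 44.8% and 62.2% for Cdk4. Ccnd1 had 12.8% in TE and 20.5% in SF, Rb1 28.1% in TF, and Rbl2 52.6% in TF and 59.0% in SF. With median transcript lengths Ccnd1 had 2.29%, 4.96%, 8.55% and 15.4%, Ccnd2 78.7%, 64.6%, 60.1% and 59.5%, Ccnd3 19.0%, 30.4%, 31.3% and 25.1%, and Rbl2 52.3% in TF and 58.4% in SF. Among genes with a mean of at least 50, the chromosome 6 median was 0.76 in TF against SF, 0.53 in TE against SE, 0.58 in TF against SE, -0.073 in TE against TF and 0.053 in SE against SF, where over all its genes it was -0.59.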

Other observations

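Of 8 genes of MuvB, the core of the DREAM complex, and of the activators that later bind it, 4 rose in SE against SF and 1 in TE against TF, where 20.9% and 9.86% of all genes tested were called higher. Foxm1, an activator of G2/M genes, stood at 79.0 and 69.6 normalised counts in SF, 702 and 950 in TF, 1250 and 1239 in TE, and 869 and 575 in SE. All 3 genes of the CDK-activating kinase rose in SE against SF, though the Cdk7 call was lost without SE replicate 1 and the Ccnh call without SF replicate 2. Mnat1, the assembly factor of that kinase, also rose in TE against TF (log2 1.41 ± 0.24, edgeR adjusted p = 0.00235).

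Of 7 genes of D cyclin turnover, 3 were called in the difference between the effects of expansion, 1 higher (Cryab) and 2 lower (Skp2, log2 -2.39, and Fbxw8, log2 -0.97, a call lost under 10 of 14 alternatives), where 14.3% of all genes tested were called. Cryab, a small heat shock protein that acts with an F-box ligase of cyclin D1, stood at 592 and 867 normalised counts in TF and 2106 and 2224 in TE, and at 3036 and 3646 in SF and 1280 and 2271 in SE (difference between the effects, log2 2.34 ± 0.41, edgeR adjusted p = 0.00574). It rose in TE against TF (log2 1.62, adjusted p = 0.00341), and SE against SF was not called (log2 -0.72, adjusted p = 0.0720). Among 7 partners of pRb, 1 rose and 2 fell in SE against SF, where 40.7% of all genes tested were called (20.9% higher, 19.8% lower). Suv39h1, a histone methyltransferase, rose (log2 1.99 ± 0.37, edgeR adjusted p = 0.00213), while Arid4a and Arid4b fell (log2 -1.01 and -1.05). In TE against TF 1 of the 7 was called, where 26.1% of all genes tested were. It was Arid4a, lower in TE (log2 -0.81 ± 0.19, edgeR adjusted p = 0.0118), a call lost without TF replicate 1, TE replicate 1 or TE replicate 2.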
